A study of Mus musculus with 5 samples.

Results

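Aminoacyl-tRNA synthetases are the enzymes that join each amino acid to its matching transfer RNA (tRNA), the step that reads the genetic code during protein synthesis. The genes described here are the protein-coding rows of the deposited table that bear a synthetase symbol, including both subunits of the phenylalanine enzyme and the paired glutamate and proline enzyme, together with the scaffold genes Aimp1 and Aimp2. The rule gave 39 of 22683 genes. Lars2, the mitochondrial leucine enzyme, was left out by the rule. Its value was 852, 741 and 893 normalized counts in the mdx libraries, against 204680 and 225347 in the wild-type libraries. Eprs, the highest of the 39 genes, had 4477 and 3923 in wild type. Whether the Lars2 counts measure the messenger RNA of this enzyme was not tested.

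RNA was sequenced from satellite cells, the stem cells that lie against the muscle fiber and divide after injury. The libraries came from sorted cells labelled quiescent, 3 from mdx mice and 2 from wild-type mice. The mdx mouse carries a mutation in Dmd, the dystrophin gene, and models Duchenne muscular dystrophy; no treatment is named in the labels for either group. The sources used here do not give strain, age, sex or the number of animals per library. P-values therefore reflect variation among the 5 libraries alone, part of which may be technical.

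Mammals have separate synthetases for the cytosol and for the mitochondrion, both encoded in the nucleus. Kars (lysine) and Gars (glycine) serve both compartments from a shared gene. In the cytosol, the enzymes for glutamate and proline, isoleucine, leucine, methionine, glutamine, arginine, lysine and aspartate are held in a multi-synthetase complex by the scaffolds AIMP1, AIMP2 and EEF1E1 (also called AIMP3). The enzymes fall into class I and class II, which have unrelated catalytic folds. Several cytosolic synthetase genes are known targets of ATF4, the transcription factor of the amino acid stress response.

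Values are the authors' normalized counts, reads per gene scaled by a factor for each library. They summed to between 12473348 and 15930638 in mdx libraries and to between 15217054 and 16825045 in wild-type libraries. Dmd was at 4642, 4116 and 3700 in mdx and at 11826 and 9266 in wild type. The female transcript Xist was at 0, 0 and 12 in mdx and at 30235 and 30176 in wild type, while the Y-linked Ddx3y was at 966, 946 and 827 in mdx and at 9 and 0 in wild type. Sex and genotype therefore cannot be told apart. The libraries also differed in markers of other cells. Summed over 10 markers each, macrophage markers lay at 10343 to 15271 in mdx and at 428 to 596 in wild type, with Itgam, C1qa, C1qb and Mrc1 (4 of the 10) at 0 in both wild-type libraries. Endothelial markers lay at 16298 to 19956 in mdx and at 2836 to 3394 in wild type, with Emcn and Cldn5 at 0 in both wild-type libraries. Of the 10 endothelial markers, 9 were higher and 1 lower in mdx. Fibro-adipogenic progenitor markers lay at 99016 to 161669 in mdx and at 18536 to 27036 in wild type, with Postn at 0 in both wild-type libraries. Of these 10 markers too, 9 were higher and 1 lower in mdx. Of 10 myofiber markers, 4 were higher in mdx (sums of 31532 to 73546 in mdx and 4219 to 5847 in wild type). Satellite cell markers lay at 39209 to 50976 in mdx and at 75778 to 87342 in wild type, with 7 of 10 lower and 2 higher in mdx. The part of these cells in the results below was not tested, and in such bulk samples fewer cells of a type and less RNA per cell cannot be told apart.

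Of the synthetase genes called, more were lower than higher in mdx, and 6 of the 8 called were genes of cytosolic enzymes, with the scaffold gene Aimp1 and the mitochondrial Sars2 as the others. A gene is called here when its adjusted p in limma, a linear model fitted over all 18199 tested genes, was under 0.05. All 39 genes passed the filter on low values, which asked for at least 10 in at least 2 libraries. Sars2 would have passed it through the mdx libraries alone. Of the 39, 1 rose (Sars2), 7 fell (Aimp1, Nars, Dars, Rars, Qars, Hars and Farsb) and 31 did not pass. That is 20.5% called, against 24.9% of all tested genes. By direction, 2.56% of the synthetase genes rose, against 14.6% of all genes, and 17.9% fell, against 10.3% of all genes. The median log2 fold change (mdx minus wild type) was −0.18 over the 39 genes and 0.13 over all tested genes. Without mdx 3, 4 genes were called lower, Rars, Hars and Farsb no longer passing, and 0 were called higher; without mdx 2, 0 were called higher, and without wild type 1, 2 were.

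By compartment, of 19 cytosolic enzyme genes, 6 fell (31.6%, against 10.3% of all tested genes), 0 rose (against 14.6%) and 13 did not pass. Their median log2 fold change was −0.36. At an unadjusted limma p under 0.05 there were 7 lower and 2 higher, beside 2985 lower and 3948 higher of all 18199 tested genes. Of 16 mitochondrial genes, 0 fell (against 10.3% of all tested genes), 1 rose (6.25%, against 14.6%) and 15 did not pass. Their median was −0.14. At an unadjusted limma p under 0.05 there was 1 lower and 1 higher. No test of the difference between the compartments was made. The mitochondrial genes had lower values, with medians of 48.7 to 68.8 per kilobase of the longest transcript across the libraries. Those of the cytosolic genes were 236 to 328. Equal fold changes were not equally likely to be called. Yars2, at −1.38 with a standard error of 0.57, was not called, while Nars, at −1.24 with 0.23, was. For 19 of the 39 genes (48.7%) the mdx and wild-type ranges were separate, close to the 52% of all tested genes. Every mdx value was under both wild-type values for 9 of the 19 cytosolic genes and for 2 of the 16 mitochondrial genes, against 23.8% of all tested genes. They lay above both for 4 cytosolic genes and 1 mitochondrial gene, against 28.2% of all tested genes. The summed value of the 19 cytosolic genes was 18096, 18039 and 18026 in mdx, against 25541 and 24504 in wild type, and that of the 16 mitochondrial genes was 4812, 4603 and 4761 in mdx, against 5201 and 5809 in wild type. Both sums were thus lower in every mdx library, the cytosolic sum by the wider margin, but library totals differed as well. All 39 genes held 0.157%, 0.206% and 0.185% of the total in mdx, against 0.231% and 0.206% in wild type. With equal library totals, the median log2 fold change was −0.17 for the cytosolic and 0.05 for the mitochondrial genes. With the replicate number as a block in the fit, these medians were −0.14 and −0.15.

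**Figure D1:**
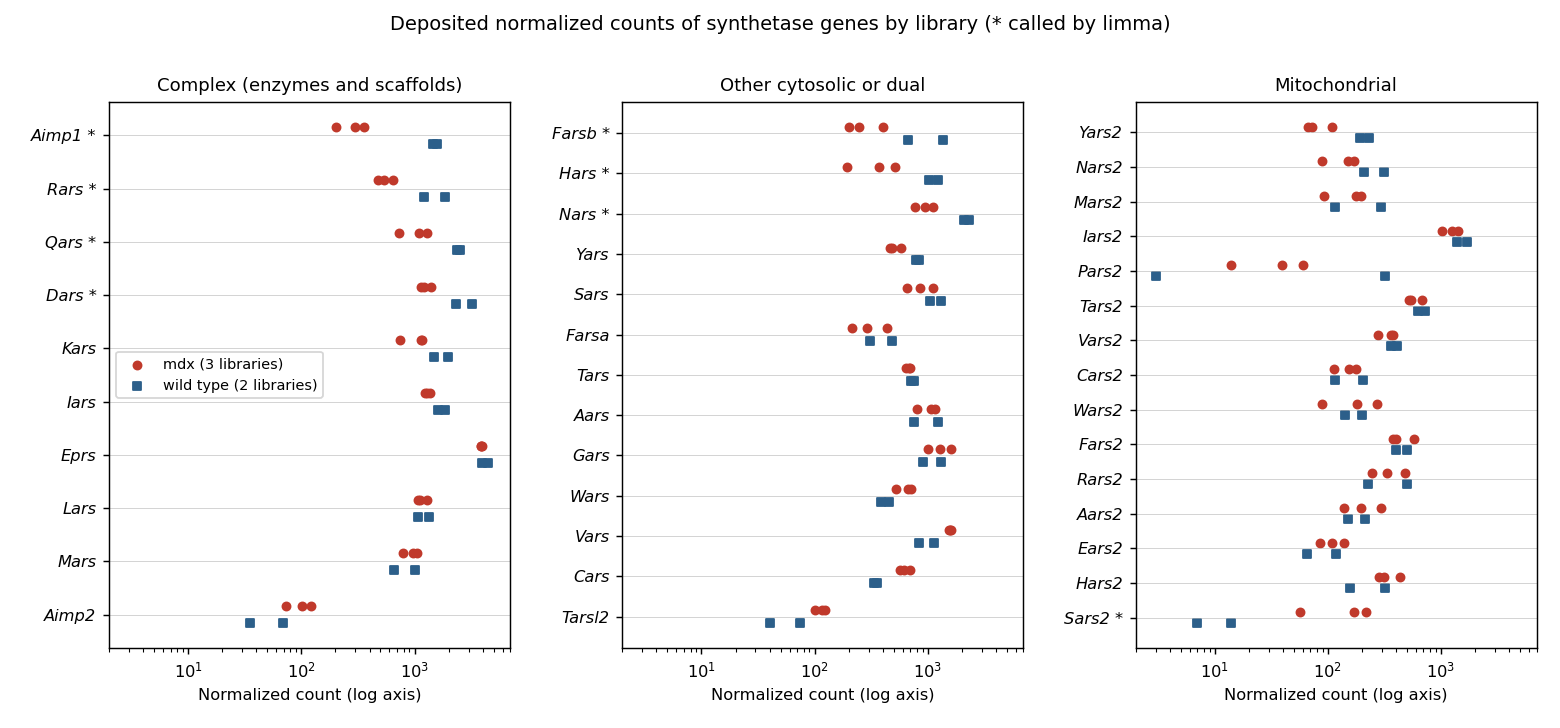
Deposited normalized counts (log axis) of 38 of the genes in each library, with mdx libraries as red circles above and wild-type libraries as blue squares below each gene's line, in panels by role; asterisks mark the 8 genes called by limma. Aimp1, with 201 to 358 in mdx and 1463 to 1585 in wild type, heads the genes of the complex, and Pars2 shows the widest spread within wild type, at 3 and 320.

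The multi-synthetase complex held the gene with the largest fall. Aimp1 (chromosome 3, 132660499 to 132683884, mm10), whose product anchors the arginine and glutamine enzymes and is also released as a cytokine precursor, had normalized counts of 298, 201 and 358 in mdx and 1463 and 1585 in wild type. The groups were far apart, and each mdx library lay under 400. The fold change was 5.45-fold lower in mdx, with a log2 value of −2.45 (95% interval −3.18 to −1.71, limma adjusted p = 0.000927). Aimp1 stayed called when each mdx library was left out in turn. It was also called without either wild-type library, but such fits rest on 1 wild-type library, which is assumed to vary like the mdx libraries, here and for the genes below.

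The arginine, glutamine and aspartate enzymes of the complex fell too. Rars (chromosome 11, 35808381 to 35834506), for arginine, was at 644, 475 and 534 in mdx and at 1868 and 1201 in wild type, a log2 fold change of −1.45 (95% interval −2.09 to −0.81, limma adjusted p = 0.00647). Qars (chromosome 9, 108507706 to 108515941), for glutamine, was at 723, 1087 and 1284 in mdx and at 2387 and 2522 in wild type, a log2 fold change of −1.29 (−1.89 to −0.68, limma adjusted p = 0.0085). Dars (chromosome 1, 128363707 to 128417368), for aspartate, was at 1408, 1150 and 1215 in mdx and at 2343 and 3230 in wild type, a log2 fold change of −1.13 (−1.63 to −0.63, limma adjusted p = 0.00633). In all 3 genes every mdx library lay below both wild-type libraries. Rars was not called when mdx 3 was left out (limma adjusted p = 0.0501), nor Qars when mdx 2 was left out (0.0506). The aspartate call ended after correction for transcript length and GC content (log2 fold change −0.66, limma adjusted p = 0.095).

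The remaining genes of the complex did not pass. Eprs, which joins the glutamate and proline enzymes in 1 polypeptide, was at 3948, 3889 and 3878 in mdx and at 4477 and 3923 in wild type. Its log2 fold change was −0.10 with a 95% interval of −0.47 to 0.27, the narrowest interval among these genes. Iars, for isoleucine, was at 1237, 1369 and 1276 in mdx, below 1626 and 1874 in wild type (log2 fold change −0.43, limma adjusted p = 0.147). It was called after the length and GC correction (log2 fold change −0.81, limma adjusted p = 0.0412). Lars, for leucine, had a log2 fold change of −0.06 (−0.57 to 0.45), and Mars, for methionine, of 0.21 (−0.41 to 0.83). Aimp2, the scaffold that binds the lysine enzyme, ran opposite to Aimp1 in its values, at 101, 73 and 122 in mdx and 69 and 35 in wild type (log2 fold change 0.94, −0.70 to 2.59, limma adjusted p = 0.368). Aimp2 overlaps the stress kinase gene Eif2ak1 on the opposite strand over 21.7% of its span, and the sources used here do not give the strand setting of the counting.

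Kars, the lysine enzyme of both compartments and a member of the complex, was at 748, 1152 and 1162 in mdx, below 1986 and 1493 in wild type. Its log2 fold change of −0.78 (−1.39 to −0.17) missed the threshold (limma adjusted p = 0.0633), and the limma adjusted p ran from 0.0105 without wild type 2 to 0.245 with equal library totals. Gars, the glycine enzyme of both compartments, was at 1003, 1611 and 1287 in mdx and at 906 and 1315 in wild type, and the groups overlapped (log2 fold change 0.23, −0.40 to 0.85).

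Counting the third scaffold Eef1e1, which is not among the 39 genes, 5 of the 11 genes of the complex fell (45.5%, against 10.3% of all tested genes), 0 rose (against 14.6%) and 6 did not pass. Eef1e1 was at 71, 138 and 104 in mdx and at 382 and 438 in wild type, a log2 fold change of −2.0 (−3.12 to −0.88, limma adjusted p = 0.0187), though not called without mdx 1 or without mdx 3. At an unadjusted limma p under 0.05, 6 of the 11 were lower and 0 higher. Of all 18199 tested genes, 2985 were lower and 3948 higher at that cut-off. Without mdx 3, 3 of the 11 were called lower. The median log2 fold change of the 11 was −0.78, beside 0.13 over all tested genes.

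**Figure D2:**
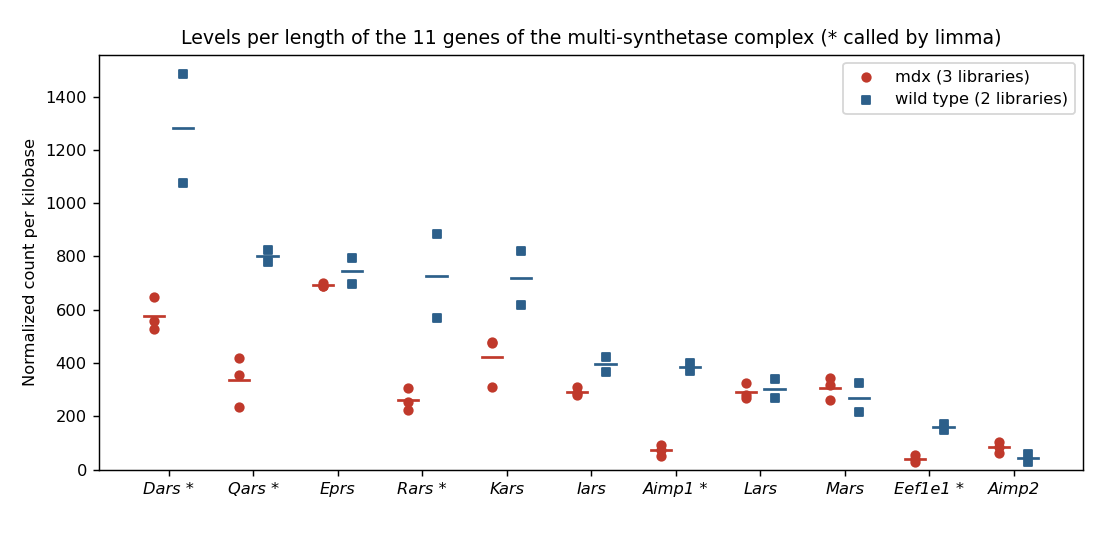
Normalized counts per kilobase of the longest annotated transcript for the 11 genes of the multi-synthetase complex, with mdx libraries (red circles) left of wild-type libraries (blue squares), lines at group means and asterisks at called genes. Dars falls to 578 in mdx, against 1281 in wild type, and Eprs lies at 693 and 745.

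Per kilobase of the longest transcript, the order of the genes of the complex differed between the genotypes. In mdx, Eprs stood highest of the 39 genes at 693 ± 6.68 normalized counts per kilobase, followed by Dars at 578 ± 61.7 (SD, n = 3). In wild type, Dars stood highest at 1281 ± 288, with Qars at 801 ± 31.1 and Eprs at 745 ± 69.5 (SD, n = 2). In wild type the libraries of Eprs overlapped those of Qars, at 794 and 696 for Eprs and 779 and 823 for Qars, so those neighbours did not differ beyond their spread. Aimp1 fell to rank 29 of 39 in mdx, against rank 11 in wild type, with levels of 72.2 ± 20.0 and 385 ± 21.8 per kilobase. Aimp2 lay at 83.3 ± 20.7 in mdx and 43.9 ± 20.3 in wild type. The AIMP scaffolds were thus at similar levels per kilobase in mdx, with overlapping libraries, and Aimp1 was above Aimp2 in both wild-type libraries. These levels rest on the longest annotated transcript, which need not be the one expressed.

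Among cytosolic enzymes outside the complex, those for asparagine, histidine and phenylalanine fell. Nars (chromosome 18, 64499665 to 64516557), for asparagine, was at 1102, 769 and 950 in mdx and at 2092 and 2301 in wild type. Its log2 fold change of −1.24 (−1.76 to −0.72, limma adjusted p = 0.00507) was called without each mdx library in turn and under the other alternatives run. Hars (chromosome 18, 36766530 to 36783205), for histidine, was at 194, 511 and 374 in mdx and at 1220 and 1034 in wild type, a log2 fold change of −1.75 (−2.68 to −0.82, limma adjusted p = 0.015), and was not called without mdx 3 (limma adjusted p = 0.0736). Neither gene had any overlap between the genotypes.

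Phenylalanine is charged in the cytosol by an enzyme of paired alpha and beta subunits, and the gene of the beta subunit was called; the difference between the subunits was not tested. Farsb (chromosome 1, 78417975 to 78488897), the beta subunit, was at 247, 399 and 202 in mdx and at 667 and 1374 in wild type. The wild-type libraries were apart from each other, yet both lay above every mdx library. The log2 fold change of −1.81 (−2.78 to −0.85, limma adjusted p = 0.0151) was not called without mdx 1 (limma adjusted p = 0.0804), without mdx 3 (0.082) or after the length and GC correction (0.0582). Farsa, the alpha subunit, was at 436, 288 and 215 in mdx and at 483 and 306 in wild type, with overlapping groups and a log2 fold change of −0.36 (−1.32 to 0.61).

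Other cytosolic genes had higher values in mdx without passing. Vars, for valine, was at 1529, 1604 and 1588 in mdx and at 1146 and 835 in wild type (log2 fold change 0.68, 0.18 to 1.19, limma adjusted p = 0.0518). Cars, for cysteine, was at 621, 574 and 699 in mdx and at 338 and 354 in wild type (log2 fold change 0.86, 0.21 to 1.51, limma adjusted p = 0.0579). Both lay above wild type in all mdx libraries. The direction for Vars turned to −0.59 after the length and GC correction (limma adjusted p = 0.155), whereas that for Cars stayed at 0.55. Wars, the tryptophan enzyme that is known to be induced by interferon, was at 523, 710 and 668 in mdx and at 453 and 386 in wild type (log2 fold change 0.59, limma adjusted p = 0.179). Tarsl2, a threonine enzyme related to Tars, was at 115, 101 and 123 in mdx and at 75 and 40 in wild type. Of 28 tested interferon genes, 3 rose (10.7%, against 14.6% of all tested genes) and 3 fell (10.7%, against 10.3%). Gbp4, a guanylate-binding protein gene, rose, at 376, 393 and 591 in mdx and at 0 in both wild-type libraries. It passed the filter on low values through the mdx libraries alone. Irf9, a transcription factor of the interferon response, fell, at 493, 343 and 471 in mdx and 1377 and 1863 in wild type. The interferon genes called higher numbered 1 without mdx 2 or mdx 3 and 9 without wild type 1, and those called lower numbered 1 without mdx 1 and 2 without mdx 2 or mdx 3.

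The genes for the alanine, serine, threonine and tyrosine enzymes of the cytosol did not pass either. Yars, for tyrosine, was at 579, 487 and 468 in mdx, below 781 and 829 in wild type (log2 fold change −0.66, −1.26 to −0.05, limma adjusted p = 0.104). Tars, for threonine, was at 690, 687 and 641 in mdx and at 708 and 762 in wild type. Those groups did not overlap, but the log2 fold change was −0.13 (−0.68 to 0.43). Sars, for serine, and Aars, for alanine, had log2 fold changes of −0.45 (−1.08 to 0.19) and 0.05 (−0.60 to 0.70), with overlapping groups.

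**Figure D3:**
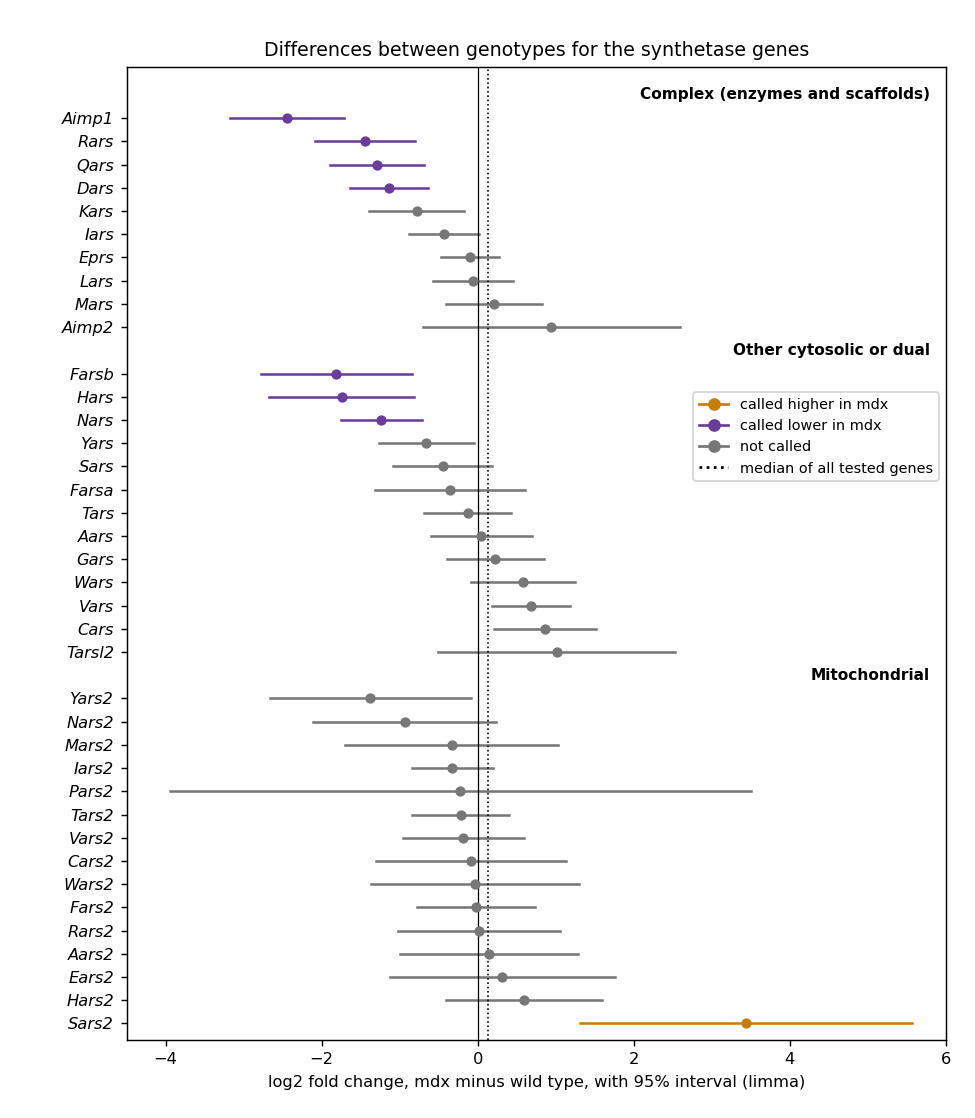
Log2 fold changes (mdx minus wild type) with 95% intervals from limma for 38 of the genes, grouped by role and coloured by call, with a dotted line at the median of all tested genes (0.13). The 7 called falls run from −2.45 (Aimp1) to −1.13 (Dars) and all belong to the cytosolic groups, and the called rise is Sars2 at 3.44.

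The mitochondrial serine enzyme gene was the only synthetase gene called higher. Sars2 (chromosome 7, 28742002 to 28753871) was at 57, 169 and 217 in mdx and at 14 and 7 in wild type. All mdx libraries lay above both wild-type libraries, and mdx 1 was the lowest of them. The log2 fold change was 3.44 with a wide 95% interval of 1.32 to 5.57 (limma adjusted p = 0.0277). Sars2 was not called when mdx 2 was left out (limma adjusted p = 0.108), when mdx 3 was left out (0.126), after quantile normalization (0.0628) or after the length and GC correction (0.0669), while the log2 fold change stayed at 2.66 or above in these fits.

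The other 15 mitochondrial genes did not pass. Yars2, for tyrosine, was at 72, 67 and 108 in mdx, below 232 and 194 in wild type (log2 fold change −1.38, −2.66 to −0.09, limma adjusted p = 0.11). Nars2, for asparagine, was at 151, 89 and 169 in mdx and at 207 and 311 in wild type (log2 fold change −0.94, −2.11 to 0.23). These were the only mitochondrial genes with every mdx library below both wild-type ones. Iars2, for isoleucine, had the highest level of the 16 per kilobase, at 225 ± 36.9 in mdx and 281 ± 40.1 in wild type. Pars2, for proline, was at 14, 60 and 39 in mdx and at 3 and 320 in wild type. Its 95% interval of −3.94 to 3.50 shows how little these libraries say about that gene. Another 10 mitochondrial genes (Aars2, Cars2, Ears2, Fars2, Hars2, Mars2, Rars2, Tars2, Vars2 and Wars2) had overlapping groups and log2 fold changes between −0.33 (Mars2) and 0.59 (Hars2).

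For 14 amino acids the cytosolic and the mitochondrial enzyme could be set side by side within each library, taking Farsa for phenylalanine and Eprs for glutamate. The ratio of cytosolic to mitochondrial levels per kilobase was lower in all mdx libraries for histidine, arginine and serine, higher in all for cysteine, valine and tyrosine, and overlapped for the other 8. For histidine, Hars over Hars2 was 0.746, 3.03 and 1.99 in mdx, against 6.39 and 11.05 in wild type. Hars2 had 436, 283 and 315 in mdx and 320 and 157 in wild type, so only the cytosolic gene of this pair was lower in every mdx library. Hars and Hars2 lie head to head on opposite strands, and their spans share 198 bases. For serine, Sars over Sars2 was 10.3, 2.04 and 2.04 in mdx, against 48.8 and 78.2 in wild type. For arginine, Rars over Rars2 was 1.71, 0.867 and 1.91 in mdx, against 7.26 and 2.12 in wild type, so mdx 3 and wild type 2 lay close together. For tyrosine, Yars over Yars2 was 7.75, 7.01 and 4.18 in mdx, against 3.25 and 4.12 in wild type, and the lowest mdx ratio was nearly equal to the highest wild-type ratio. These ratios were described without a test, and the share of separate ranges among ratios of other genes was not computed.

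**Figure D4:**
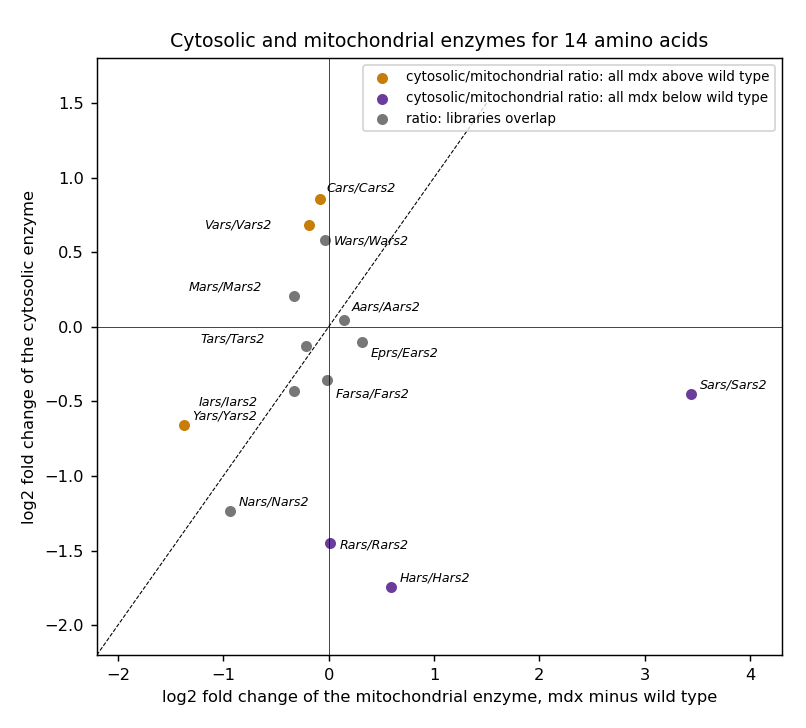
Log2 fold changes (mdx minus wild type) of the mitochondrial enzyme (horizontal) and the cytosolic enzyme (vertical) for 14 amino acids, with a dashed line where they are equal and colours by whether the ratio of the pair overlapped between the genotypes. Sars/Sars2 lies far to the right at 3.44, and Hars/Hars2 lies lowest at −1.75.

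By catalytic class, 2 of 17 class I genes fell (Qars and Rars) and 0 rose (against 14.6% of all tested genes), with a median of −0.09. At an unadjusted limma p under 0.05 there were 4 lower and 2 higher class I genes. The counts over all 18199 tested genes at that cut-off were 2985 lower and 3948 higher. The 11.8% of class I genes that fell stood near the 10.3% of all tested genes. Of 19 class II genes, 4 fell (Dars, Farsb, Hars and Nars) and 1 rose (Sars2), with a median of −0.22. The share that fell was 21.1%, against 10.3% of all tested genes, and the share that rose was 5.26%, against 14.6%. At an unadjusted limma p under 0.05 there were 5 lower and 1 higher class II genes. The classes were not tested against each other.

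The fallen genes had shorter transcripts than the genes that were not called. The longest annotated transcript had a median of 2175 bases (1989 to 3958) in the 7 fallen genes, 3366 bases (1185 to 11294) in the 31 not called, and 2970 bases over all tested genes. After a correction that fitted and subtracted, in each library, the dependence on length and GC content, 6 synthetase genes were lower and 0 higher, and 5 of the 6 were among the 7 before. Over all genes the same step gave 1471 higher and 1605 lower genes, compared with 2659 and 1868 without it. The part of transcript length in the remaining falls was not tested further.

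**Figure D5:**
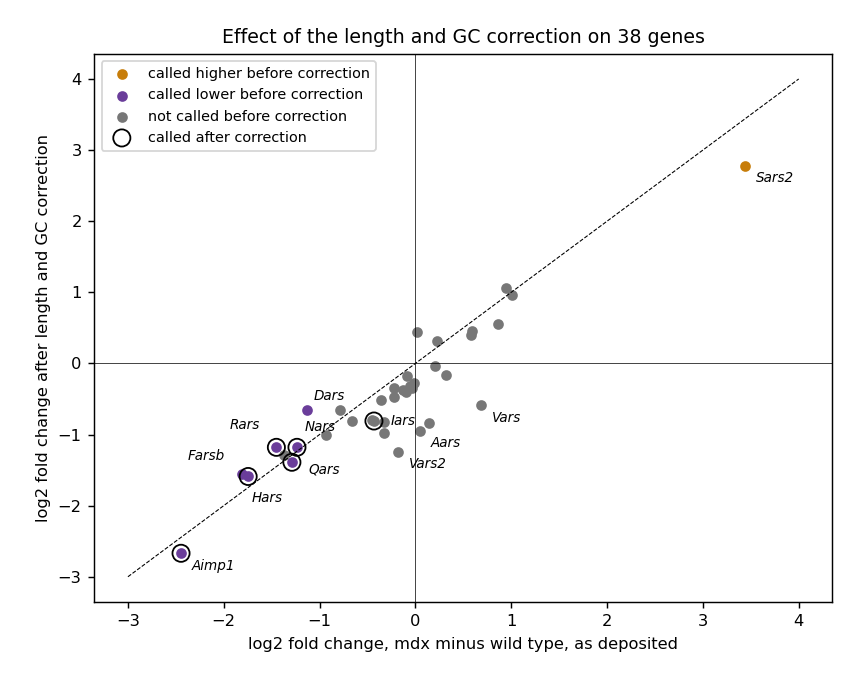
Log2 fold changes (mdx minus wild type) of 38 of the genes as deposited (horizontal) and after the length and GC correction (vertical), with colours for the call before and rings for the call after. Aimp1 lies at −2.45 as deposited and at −2.67 after the correction, and Vars moves from 0.68 to −0.59.

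Promoters from RefSeq (GRCm38.p6, the assembly of mm10), 250 bases before to 50 after the start of transcription, were matched by symbol for 29 of the 39 genes, with 31 promoters. Those without a match include Cars, Hars, Hars2, Lars, Nars, Pars2, Rars, Vars and Wars. The element bound by ATF4 with C/EBP partners, searched as TGATGNAA on both strands, was found in Aars, Gars, Iars, Tars and Yars, or 17.2% of the 29 genes. Counted by promoter, the share was 16.1% of the 31, against 3.97% of all 32851 promoters given by RefSeq. None of these 5 genes was called, and none of the 5 called genes with a promoter (Aimp1, Dars, Farsb, Qars and Sars2) held the letters in this window. These matches are a description of letters only. The stretches around the matches are shown because they mark the genes with the stress element, with the matched letters in capitals and TTNCATCA as the reverse complement.
Aars, chr8:111033700-111033767, plus strand: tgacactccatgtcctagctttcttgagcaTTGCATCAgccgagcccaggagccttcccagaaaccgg
Aars, chr8:111033821-111033888, plus strand: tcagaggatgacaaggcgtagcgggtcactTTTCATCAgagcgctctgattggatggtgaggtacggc
Gars, chr6:55037941-55038008, plus strand: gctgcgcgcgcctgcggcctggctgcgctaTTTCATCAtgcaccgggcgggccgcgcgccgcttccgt
Iars, chr13:49682107-49682174, plus strand: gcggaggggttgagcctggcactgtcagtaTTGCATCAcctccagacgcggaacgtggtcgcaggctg
Tars, chr15:11399636-11399703, minus strand: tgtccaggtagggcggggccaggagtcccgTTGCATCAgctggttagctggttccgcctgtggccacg
Yars, chr4:129189876-129189943, plus strand: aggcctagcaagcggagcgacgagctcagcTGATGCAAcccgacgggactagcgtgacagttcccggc

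The promoters of the genes with the largest fall and the largest rise, and of Qars, which fell with Aimp1, are shown whole. Capitals mark the CCAAT box, searched as CCAAT on both strands and present in 15 of the 29 genes (51.7%). It was in 48.4% of their 31 promoters and in 37.4% of all promoters. Sars2 held it 4 times and Qars 2 times, each as the reverse complement. The promoter of Aimp1 nearest to the annotated gene start held none of the motifs searched, while the promoter of its other annotated start held the CCAAT box 2 times. The E-box CACGTG was found in Aars, Ears2, Farsb, Iars and Tars (17.2% of the genes). Counted by promoter, its share was 16.1% of the 31, against 7.15% of all promoters. The NRF1 element, a palindrome, was in none of the 29 genes, against 0.971% of all promoters.
Aimp1, chr3:132683830-132684129, minus strand: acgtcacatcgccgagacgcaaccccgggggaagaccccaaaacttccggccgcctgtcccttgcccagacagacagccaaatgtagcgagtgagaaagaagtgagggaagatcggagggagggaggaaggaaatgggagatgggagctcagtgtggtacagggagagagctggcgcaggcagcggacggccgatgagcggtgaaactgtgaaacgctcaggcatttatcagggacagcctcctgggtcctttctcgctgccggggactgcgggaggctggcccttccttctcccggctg
Sars2, chr7:28741718-28742017, plus strand: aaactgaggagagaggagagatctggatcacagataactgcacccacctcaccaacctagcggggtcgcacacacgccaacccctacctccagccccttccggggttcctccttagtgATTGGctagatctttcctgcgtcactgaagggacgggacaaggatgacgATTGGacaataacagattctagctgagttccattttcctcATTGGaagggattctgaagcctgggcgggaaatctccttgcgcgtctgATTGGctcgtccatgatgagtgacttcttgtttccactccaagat
Qars, chr9:108507755-108508054, plus strand: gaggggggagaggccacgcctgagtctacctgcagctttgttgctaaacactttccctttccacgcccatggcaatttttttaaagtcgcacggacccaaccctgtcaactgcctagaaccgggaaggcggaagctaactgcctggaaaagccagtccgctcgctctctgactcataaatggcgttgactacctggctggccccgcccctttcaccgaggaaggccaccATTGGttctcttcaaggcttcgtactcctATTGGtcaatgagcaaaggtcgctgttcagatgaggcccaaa

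Genes of the amino acid stress response were called in both directions. Of 34 tested genes, 6 fell (17.6%, against 10.3% of all tested genes), 3 rose (8.82%, against 14.6%) and 25 did not pass. Fold changes were positive for 23 of the 34, with a median log2 value of 0.35, beside 0.13 over all tested genes. Atf4 was at 2819, 1694 and 2734 in mdx and at 4539 and 5564 in wild type, a log2 fold change of −1.09 (limma adjusted p = 0.0131), and it was not called without mdx 1 or without mdx 3. Atf3, a transcription factor downstream of ATF4, fell as well, at 1434, 1743 and 1606 in mdx and 6001 and 5019 in wild type (log2 fold change −1.79, limma adjusted p = 0.000274). Slc38a2 and Slc3a2, which encode amino acid transporter subunits, fell with log2 fold changes of −1.39 and −1.20, and Herpud1, a gene of protein degradation at the endoplasmic reticulum, with −1.05. Slc3a2 was not called without mdx 2 or mdx 3. Asns, the asparagine synthetase that makes the amino acid itself, ran the other way, at 85, 180 and 126 in mdx and 12 and 0 in wild type (limma adjusted p = 0.0183), but was not called without mdx 1, 2 or 3. Slc7a11, encoding a cystine transporter and chosen here after its values were seen, was at 47, 67 and 45 in mdx and at 0 and 1 in wild type (limma adjusted p = 0.0229). It was called without each mdx library in turn, but not after quantile normalization. Both genes would have passed the filter on low values through the mdx libraries alone. Ddit3, encoding the stress factor CHOP, was at 171, 115 and 143 in mdx and at 253 and 367 in wild type and did not pass (limma adjusted p = 0.116). Ddit3 and Mars overlap by 68 bases on opposite strands. The list had 3 lower and 1 higher gene without mdx 3, 4 lower and 1 higher without mdx 2, and 1 higher without mdx 1; without wild type 1, 7 were higher.

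Upstream of ATF4, uncharged tRNA activates the kinase GCN2 through its partner GCN1, which leads to phosphorylation of the initiation factor eIF2. Of 15 tested genes of the eIF2 kinases, eIF2 and its exchange factor, 1 rose (6.67%, against 14.6% of all tested genes) and 4 fell (26.7%, against 10.3%). Gcn1l1, encoding GCN1, was at 2290, 2379 and 3044 in mdx and at 861 and 869 in wild type (log2 fold change 1.56, limma adjusted p = 0.001). After the length and GC correction its log2 fold change was 0.13 and was no longer called (limma adjusted p = 0.768). Impact, which competes for GCN1, fell with a log2 fold change of −1.81, as did genes of eIF2 subunits, with −2.0 for Eif2s2 and −1.63 for Eif2s3x. The X-linked Eif2s3x has a Y-linked counterpart, Eif2s3y, and sex and genotype cannot be told apart in its fall.

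Of 26 tested genes of tRNA processing and export, 9 fell (34.6%, against 10.3% of all tested genes) and 17 did not pass. The number that rose was 0, against 14.6% of all tested genes. At an unadjusted limma p under 0.05 there were 10, all lower, against 2985 lower and 3948 higher of all 18199 tested genes. Leaving out any 1 mdx library, or correcting for length and GC content, gave 5 lower. Ddx1 and Rtcb, of the ligase complex that joins spliced tRNA, both fell. Ddx1 was at 1021, 1058 and 888 in mdx and at 4037 and 3160 in wild type, and Rtcb at 942, 991 and 1199 in mdx and at 4314 and 3263 in wild type. Their log2 fold changes were −1.85 each (limma adjusted p = 0.000403 and 0.000499), and both were called without each mdx library in turn. Ssb, encoding the La protein that binds new tRNA, and Clp1, a kinase gene of tRNA splicing, fell with log2 fold changes of −1.14 and −2.28. The Ssb call ended after the length and GC correction (limma adjusted p = 0.0617) and the Clp1 call without mdx 2 or mdx 3.

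Of 50 tested tRNA modification genes, 4 fell (8%, near the 10.3% of all tested genes), 0 rose (against 14.6%) and 46 did not pass. At an unadjusted limma p under 0.05 there were 9, all lower, against 2985 lower and 3948 higher of all 18199 tested genes. The 4 were Elp2 and Elp5 of the Elongator complex, Osgep, which makes a modified adenosine next to the anticodon, and Cdk5rap1, a gene of mitochondrial tRNA modification, with log2 fold changes of −1.52, −1.60, −2.46 and −1.49. Of these, Elp2 was called without each mdx library in turn; Elp5 lost it without mdx 1, 2 or 3, Osgep without mdx 1 or mdx 2, and Cdk5rap1 when any 1 of the 5 libraries was left out. Among 29 genes of RNA polymerase III and its factors, which transcribe tRNA genes, 5 fell (17.2%, against 10.3% of all tested genes) and 1 rose (3.45%, against 14.6%). The falls with the smallest p were in subunits that polymerase III shares with other polymerases, Polr1c (−2.75), Polr2h (−3.95) and Polr1d (−1.93). Gtf3c1, encoding a subunit of the factor that binds tRNA promoters, rose with a log2 fold change of 0.86, but had −0.17 after the length and GC correction and was not called without mdx 1 or mdx 3; Polr1d was not called without mdx 3. The 5 falls became 2 without mdx 3 and 3 without mdx 2.

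Partners of the synthetases in the mitochondrion were mostly not called. Of 26 tested genes, 3 fell (11.5%, near the 10.3% of all tested genes), 1 rose (3.85%, against 14.6%) and 22 did not pass. Hsd17b10 and Trmt10c, of the enzyme that trims and methylates mitochondrial tRNA, fell with log2 fold changes of −1.61 and −1.88, and Slirp, which stabilizes mitochondrial messenger RNA, with −3.20. Polrmt, the mitochondrial RNA polymerase gene, rose with a log2 fold change of 1.64, and had 0.38 after the length and GC correction (limma adjusted p = 0.67). Polrmt and Trmt10c were not called without mdx 1, 2 or 3, nor Polrmt without wild type 2. Of 10 genes of tRNA proofreading and selenocysteine tRNA, Dtd1 and Sepsecs fell (20%, against 10.3% of all tested genes) and 0 rose (against 14.6%). Dtd1 removes D-amino acids from tRNA, and Sepsecs makes selenocysteine on its tRNA. Beside 2985 lower and 3948 higher of all 18199 tested genes, the same 2 genes were lower at an unadjusted limma p under 0.05. They lost the call without mdx 2 or mdx 3, and Sepsecs also without mdx 1 or wild type 2.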

How the data were processed

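Total RNA was sequenced from 3 mdx and 2 wild-type libraries, each made from 10000 to 20000 sorted cells with a stranded low-input kit, per the labels. The submitters' processing notes name STAR 2.6.1d, featureCounts 1.6.3, DESeq2 1.18.1 and mm10; the sources used here give neither the strand setting nor gene filters. The deposited whole numbers are treated as a score: normalized counts, in which the authors appear to have scaled each library and rounded, as read from the values. Each column had the same typical level relative to the other columns although totals differed, and some small whole numbers never occur in mdx 1. The depth in reads is therefore unknown, and low values carry the larger errors.

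Values were transformed to log2(value + 2), and the 18199 genes with at least 10 in at least 2 libraries were fitted by limma 3.58.1 in R 4.3.3 with genotype as the only term, a variance trend and robust moderation. P-values are two-sided with Benjamini-Hochberg adjustment over all tested genes, and intervals are 95%. The added 2 pulls folds of low values toward 0. Lengths and GC content come from the longest GENCODE M21 transcript, found for 22649 of the 22683 genes. The steps were tested on simulated data. Alternatives were other pseudocounts, filters and scalings, a length and GC correction, a replicate block and each library left out.

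All members are counted, and 1 mitochondrial gene is included in counts and sums but not reported here by itself. Pathway lists give up to 4 called genes by smallest p. Members and lists were chosen with earlier results of these data known.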

Additional observations from a re-analysis of the deposited data

How the results depend on the processing

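Read depth is unknown, so its effect on these results was not tested. Without a wild-type library, the spread comes from the mdx libraries alone, and the lone wild-type library is assumed to vary like them. Of all tested genes, 2659 were higher and 1868 lower in mdx. The counts were 1471 higher after the length and GC correction and 1163 higher and 860 lower with the replicate number as a block, and ran from 1450 to 3308 higher and from 1112 to 1853 lower with 1 library left out (1709, 1491 and 1450 higher without mdx 1, 2 and 3, and 1186 and 1112 lower without mdx 2 and 3). Calls were 58.7% higher in the fit as reported and 47.8% after the length and GC correction. Whether the same numbers pair the libraries is not known. Same-numbered deviations correlated at −0.014 and −0.017. The deviations of the 2 wild-type libraries are exact opposites, so these values cannot settle the question. Synthetase genes higher numbered 1 as reported, 3 with a minimum of 50, 2 with equal library totals or quantile normalization (Cars in both, Vars in the second), 0 after the length and GC correction or with the block, and 0 to 2 with 1 library left out. Synthetase genes lower numbered 7, but 4 with the block and 4 to 9 with 1 library left out (4 without mdx 3). Median log2 fold changes of the cytosolic genes (−0.36) were −0.17 with equal totals, −0.66 after the length and GC correction, −0.14 with the block and −0.40 to −0.14 with 1 library left out. Those of the mitochondrial genes (−0.14) were 0.05 with equal totals, −0.41 after the length and GC correction, −0.15 with the block and −0.22 to −0.01 with 1 library left out. Cytosolic and mitochondrial medians were thus nearly equal with the block. They were also close without wild type 1 (−0.18 and −0.16) and without mdx 2 (−0.26 and −0.22). Without wild type 2 (−0.33 and −0.01) and without mdx 1 (−0.40 and −0.06) they lay further apart. Over all pathway lists together, 9 higher and 41 lower became 4 higher after the length and GC correction, 2 and 18 with the block, and 3 to 21 and 23 to 43 with 1 library left out. The cause of these shifts was not tested.

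The median log2 fold change of all tested genes was 0.135 as reported and 0.312 with equal library totals, which turned the sign of Cars2 (0.10), Eprs (0.09), Fars2 (0.17), Lars (0.13), Tars (0.06), Vars2 (0.00) and Wars2 (0.15). Quantile normalization turned Eprs (0.17) and Fars2 (0.02), the length and GC correction Aars (−0.95), Aars2 (−0.84), Ears2 (−0.16), Mars (−0.03) and Vars (−0.59), and the block Aars2 (−0.13), Cars2 (0.09), Fars2 (0.10) and Wars2 (0.40). With 1 library left out, signs turned for genes that were not called, with ranges of −0.29 to 0.38 for Aars, −0.13 to 0.41 for Aars2, −0.49 to 0.32 for Cars2, −0.10 to 0.73 for Ears2, −0.21 to 0.14 for Fars2, −0.04 to 0.49 for Gars, −0.23 to 0.11 for Lars, −0.09 to 0.51 for Mars, −1.0 to 0.34 for Mars2, −3.23 to 2.78 for Pars2, −0.55 to 0.58 for Rars2 and −0.39 to 0.40 for Wars2. No called synthetase gene changed direction under any alternative run. With the block, Rars, Nars, Aimp1 and Qars stayed called. No other library shares the replicate number of mdx 3, so in that fit mdx 3 added nothing to the genotype estimate. The block also left little from which to estimate error.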
